A study of Homo sapiens with 12 samples.

Results

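The genes described here make the proteins that coat lipid droplets, build or break down the triglyceride stored in them, or bring lipid into the cell. They are PLIN2, PLIN3, HILPDA, G0S2, PNPLA2, DGAT1, DGAT2, CIDEB, FABP1 and VLDLR, 10 genes picked by name from the 60666 listed in each count table by matching Ensembl identifiers to symbols. All 10 were found, 9 had enough counts to be tested, and G0S2 did not. They were measured in Huh7, an established human hepatocellular carcinoma cell line, grown with 25 µM Molidustat or with DMSO alone and collected at 24 h or at 48 h. Molidustat inhibits the prolyl hydroxylases that mark the α subunits of the hypoxia-inducible factors (HIF) for degradation, and the comparison asks how transcripts of lipid storage differ when that pathway is switched on by a drug. Each of the 4 groups held 3 libraries, 12 in all, and every library came from the same cell line. The study describes its replicates as biological while the record of the series mentions triplicate extractions, so the p-values measure the spread between these libraries, which may be in part technical.

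A lipid droplet is a core of triglyceride and cholesteryl ester under a single layer of phospholipid, to which coat proteins bind. Hepatocytes take up fatty acids and lipoprotein lipid, join fatty acids to glycerol to make triglyceride, keep it in droplets, and release it through lipases or secrete it in lipoproteins. Perilipins shield the droplet from lipases, PNPLA2 (adipose triglyceride lipase) removes the first fatty acid, and the small proteins G0S2 and HILPDA inhibit that lipase. DGAT1 and DGAT2 catalyse the last step of triglyceride synthesis. Droplets accumulate in many cell types under low oxygen, and HILPDA, PLIN2 and VLDLR are known as genes that HIF can switch on.

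The upstream sequences of the perilipin genes PLIN2 and PLIN3 are shown because these 2 coat genes behaved differently in the counts. Both come from RefSeq on GRCh38.p14, read 5′ to 3′ on the minus strand and ending at or near the annotated start. The PLIN2 stretch is chr9:19127493-19127742 and the PLIN3 stretch is chr19:4867695-4867917, from which 27 bases that lie in an annotated exon of GENCODE 44 were left off. The PLIN2 stretch touches no annotated exon, although GENCODE also places transcripts of this gene that begin farther upstream. Capitals mark ACGTG and GCGTG, the core letters bound by HIF, searched on both strands, so that CACGTG marks ACGTG on either strand.
PLIN2: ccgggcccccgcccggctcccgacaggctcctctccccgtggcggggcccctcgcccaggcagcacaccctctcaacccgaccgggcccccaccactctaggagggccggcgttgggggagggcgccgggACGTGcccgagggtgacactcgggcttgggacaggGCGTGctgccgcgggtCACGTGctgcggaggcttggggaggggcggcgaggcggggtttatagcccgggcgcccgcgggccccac
PLIN3: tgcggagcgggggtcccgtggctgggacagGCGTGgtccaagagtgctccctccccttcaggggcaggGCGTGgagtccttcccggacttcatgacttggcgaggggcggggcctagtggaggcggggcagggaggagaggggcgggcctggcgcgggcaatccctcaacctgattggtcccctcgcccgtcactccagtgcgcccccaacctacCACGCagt
Both windows of 250 bases upstream of the start held 3 separate sites, and of 35116 RefSeq promoter windows of that length 5.56% held at least 3. Those of PLIN2 began 120, 85 and 69 bases before the start and included ACGTG, found in 18.5% of the windows, and the palindrome CACGTG, found in 6.34% of them and also the letters of an E-box. Those of PLIN3 were all GCGTG, found in 32.2% of the windows. Of the 10 genes, 7 had entries in the table, 8 in all. G0S2 and VLDLR held 4 separate sites each, a number that 1.85% of all windows reached or passed, CIDEB held 1 in 1 of its 2 entries, and FABP1 and PNPLA2 held 0. The VLDLR window, chr9:2621537-2621786, lies inside the span GENCODE gives that gene, which begins at 2621182 on the plus strand. HILPDA, DGAT1 and DGAT2 had no entry. No binding was measured, and these matches only describe the letters.

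Gene counts totalled 1499273 to 9179389 per library, so that the limit that a count of 0 allows, 3 counts, corresponded to 0.310 to 3.19 CPM, the unit obtained when every library is brought to an equal sum of counts. These values were scaled with TMM factors and come from the 3′ ends of transcripts, without correction for length, so differences are tested between samples of a gene and not between genes, and the gene with the highest CPM of a marker list is named as a description only. The library DMSO 48 h replicate 2 stood apart from the rest, with 50.4% of its reads on no annotated feature (17.1 to 25.6% in the other libraries), the lowest total of 1499273 counts and a TMM factor of 0.629 (1.01 to 1.08 in the others). Where leaving it out moved a fold change or a median at 48 h by over 1.5 times or turned its sign, that value is given too. A gene was called when its adjusted p from edgeR's quasi-likelihood test was under 0.05 and its log2 fold change was beyond 1. Of 14274 genes tested, 33 were called at 24 h (0.231%) and 33 at 48 h (0.231%).

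The cells carried the transcripts of their lineage. All 10 hepatocyte markers, among them ALB and AFP, had counts in every library. Their summed level was 12791 to 15762 CPM in the DMSO and 19128 to 23290 CPM in the Molidustat libraries at 24 h, and 9062 to 17180 CPM against 24674 to 29460 CPM at 48 h, and AFP was the most abundant of them in each library. None of the 10 was called. The Molidustat libraries nonetheless lay above the DMSO libraries without overlap for 3 of them at 24 h and for 6 at 48 h. Among the 14274 genes in the test, 7.26% showed this upward separation in the earlier comparison and 9.96% in the later one. Without DMSO 48 h replicate 2, edgeR called TF higher at 24 h (log2 fold change 1.27, adjusted p 0.00163) and at 48 h (1.11, adjusted p 0.0351), and likewise SERPINA1 at 24 h (1.16, adjusted p 0.0149) and at 48 h (1.23, adjusted p 0.0474). Not all markers had positive values: at 48 h APOB had a log2 fold change of -0.46 (adjusted p 0.609) and the transcription factor HNF4A one of -1.88 (adjusted p 0.337), which was -0.05 without that library. The part of these markers in the differences described here was not tested. Fat cell markers, which overlap with the storage machinery, were close to absent: the 8 adipocyte genes summed to 0 to 4.24 CPM, led over all libraries together by CIDEC, with ADIPOQ, FABP4 and LPL at 0 in all libraries. On average PLIN4 was above CIDEC in the DMSO 48 h group (1.36 against 0.27 CPM). PLIN1 was above it in the Molidustat 48 h group (1.12 against 0.71 CPM). Fibroblast and stellate cell markers summed to 1.86 to 22.2 CPM, with LUM highest over all libraries together but COL1A2 above it on average in the Molidustat 24 h and DMSO 48 h groups, and with ACTA2 at 0 in all libraries. They were highest in the Molidustat 48 h libraries, at 14.6 to 22.2 CPM. Macrophage and leukocyte markers summed to 2.13 to 14.7 CPM and were also highest there, at 9.66 to 14.7 CPM. CD14 was highest over all libraries together, through its level in the Molidustat 48 h group (8.92 CPM on average, against 2.62 CPM for CD68), and CD68 had the higher mean in the other 3 groups, with CSF1R and CD163 at 0 throughout. Endothelial markers summed to 0 to 6.45 CPM, led by PECAM1, with VWF at 0 throughout. All libraries came from the same cell line, and the source of these low levels of other markers was not tested.

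The treatment was visible in known HIF targets. Of 10 such genes listed as a check, 9 could be tested and all 9 were higher in the fit at both times. The list was chosen with earlier results of these data known, so this shared direction is a description and not a test. The median of their log2 fold changes was 1.98 in the earlier and 1.64 in the later comparison, against 0.02 and 0.0060 over all genes tested (0.04 and 0.01 without DMSO 48 h replicate 2). At 24 h, PDK1, BNIP3, SLC2A1 and DDIT4 were called higher, and at 48 h BNIP3 and DDIT4. BNIP3, a mitophagy receptor, measured 158 ± 49.0 CPM (SD, n = 3) in DMSO and 1111 ± 129 CPM in Molidustat at 24 h, which is a log2 fold change of 2.81, with 2.68 at 48 h. Summed over the list, the 6 DMSO libraries measured 251 to 386 CPM and the 6 Molidustat libraries 1477 to 1899 CPM.

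Among the 9 lipid storage genes that could be tested, PLIN2 was called at 48 h and none was called at 24 h. Those counts stand beside the 0.231% of all genes called at each time point. PLIN2 and HILPDA lay above the controls in every Molidustat library at both time points, which held for 2.2% of all genes tested, and FABP1 did so at 48 h. That makes 2 of 9 genes at 24 h, against 7.26% of all genes, and 3 of 9 at 48 h, against 9.96%. The other members overlapped between treatment and control at both times. The median log2 fold change of the 9 genes was 0.70 at 24 h and 0.24 at 48 h, and the latter was 0.07 without DMSO 48 h replicate 2. The plot of the 10 genes by library shows PLIN2 and HILPDA split by treatment, CIDEB split by time, FABP1 split by treatment at 48 h, and the rest with overlapping points.

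**Figure D1:**
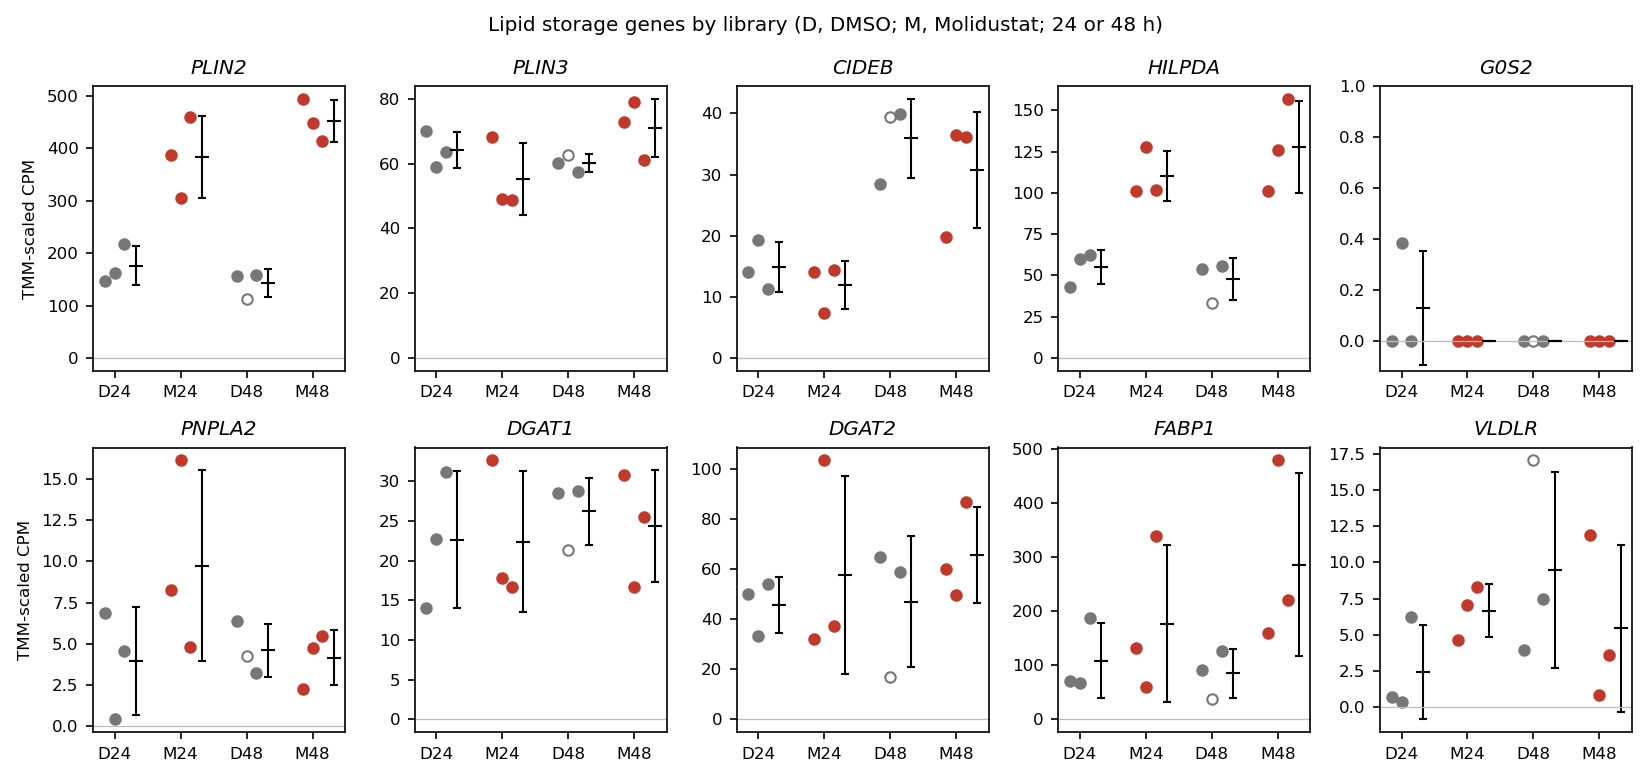
TMM-scaled CPM (y axis, linear, 1 scale per gene) of the 10 genes in the 12 libraries, by group (x axis: D, DMSO; M, Molidustat; 24 or 48 h). Grey and red points are DMSO and Molidustat libraries, the open point is DMSO 48 h replicate 2, and black marks are the mean and SD of 3 libraries. For PLIN2 the 6 DMSO libraries lie between 113 and 218 CPM and the 6 Molidustat libraries between 304 and 494 CPM.

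PLIN2 (ENSG00000147872, chr9:19108375-19149290, minus strand, GRCh38) encodes perilipin 2, the main droplet coat protein of hepatocytes. At 24 h its DMSO libraries measured 147, 163 and 218 CPM and its Molidustat libraries 386, 304 and 459 CPM. At 48 h the DMSO libraries measured 157, 113 and 159 CPM and the Molidustat libraries 494, 448 and 414 CPM. Every Molidustat library was thus above every DMSO library of either time point. PLIN2 rose at 48 h, by 1.66 on the log2 scale (SE 0.31, 95% interval 1.0 to 2.31, 3.15-fold), with an adjusted p of 0.0367 from edgeR. At 24 h the log2 fold change was 1.12 (SE 0.30, interval 0.48 to 1.77, 2.18-fold) with an adjusted p of 0.278, which missed the threshold. The groups ranked DMSO 48 h (143 ± 26.0 CPM), DMSO 24 h (176 ± 37.3), Molidustat 24 h (383 ± 77.5) and Molidustat 48 h (452 ± 40.3; SD, n = 3 each). The 2 DMSO groups overlapped, as did the 2 Molidustat groups, and the difference between the time points in the effect was 0.53 (SE 0.43, adjusted p 0.861). DESeq2 called PLIN2 at 24 h (adjusted p 0.00421) and at 48 h (adjusted p 6.32e-07), whereas edgeR did not call it at 48 h on total counts (adjusted p 0.0824) or on the 48 h libraries alone (adjusted p 0.241). Without DMSO 48 h replicate 2, PLIN2 passed the thresholds at 24 h (log2 fold change 1.13, adjusted p 0.0234) and at 48 h (1.5, adjusted p 0.015). The call at 48 h was lost, with adjusted p from 0.0564 to 0.22 and log2 fold changes from 1.58 to 1.71, when any 1 of 8 other libraries was left out, namely the 3 of DMSO 24 h, Molidustat 24 h replicates 1 and 3, and the 3 of Molidustat 48 h.

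PLIN3 (ENSG00000105355, chr19:4838341-4867694, minus strand) encodes perilipin 3, a coat protein that moves from the cytosol to new droplets. Its DMSO libraries measured 70.0, 58.9 and 63.6 CPM and its Molidustat libraries 68.1, 49.2 and 48.6 CPM at 24 h. At 48 h the values were 60.3, 62.8 and 57.4 CPM in DMSO and 72.8, 78.9 and 61.3 CPM in Molidustat. Treated and control libraries overlapped at both times. The log2 fold change was -0.22 (SE 0.28, interval -0.81 to 0.37, adjusted p 0.999) at 24 h and 0.24 (SE 0.28, interval -0.35 to 0.83, adjusted p 0.781) at 48 h. Exons of PLIN3 share 502 bases with a long noncoding RNA on the opposite strand, which had 9 to 67 counts per library against 59 to 555 for PLIN3. With the strand setting not given, PLIN3 values may include reads of that RNA or lack reads from the shared bases. The same holds for the ratio to PLIN2.

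The relation between these perilipins within a library does not depend on how libraries are scaled. The log2 ratio of PLIN2 to PLIN3 counts was 1.43 ± 0.35 in DMSO and 2.79 ± 0.39 in Molidustat at 24 h, and 1.23 ± 0.34 against 2.67 ± 0.15 at 48 h (SD, n = 3 each). The DMSO libraries ran from 0.84 to 1.77 and the Molidustat libraries from 2.50 to 3.24. No test was made of this ratio, since the genes were chosen with results of these data known.

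**Figure D2:**
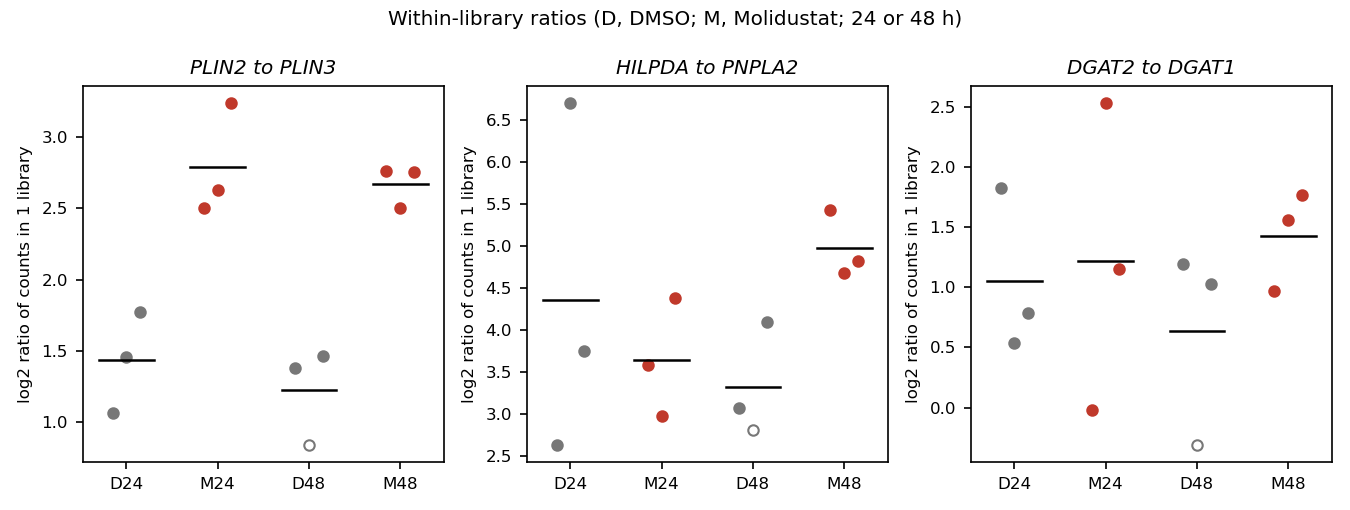
Log2 ratio of the counts (with 0.5 added to each) of 2 genes within 1 library (y axis) by group (x axis: D, DMSO; M, Molidustat; 24 or 48 h). Points are libraries, the open point is DMSO 48 h replicate 2, and lines are means of 3. PLIN2 to PLIN3 lies between 0.84 and 1.77 in DMSO and between 2.50 and 3.24 in Molidustat, while DGAT2 to DGAT1 overlaps between the treatments.

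CIDEB (ENSG00000136305, chr14:24305187-24311430, minus strand) encodes a protein of liver that enlarges droplets by transferring lipid between them and loads lipoproteins with lipid. It measured 14, 19.3 and 11.4 CPM in DMSO and 14, 7.40 and 14.4 CPM in Molidustat at 24 h. At 48 h it measured 28.5, 39.4 and 39.9 CPM in DMSO and 19.8, 36.5 and 36.1 CPM in Molidustat. Its libraries separated by time and not by treatment. Within DMSO the 48 h libraries were all above the 24 h libraries, with a log2 difference of 1.27 (SE 0.41, unadjusted p 0.00667, adjusted p 0.541), and within Molidustat likewise, with 1.37 (SE 0.41, unadjusted p 0.00396, adjusted p 1), so that neither passed the adjusted threshold. The 48 h libraries lay above the 24 h libraries for 5.75% of all genes in DMSO and 7.15% in Molidustat, where 0.00701% and 0% of genes were called in either direction. The treatment effects on CIDEB were -0.32 (interval -1.18 to 0.54) at 24 h and -0.22 (interval -1.06 to 0.62) at 48 h. Exons of CIDEB share 1577 bases with NOP9 and 1276 bases with LTB4R2 on the opposite strand. The strand setting of the counting is not given in the sources used here. CIDEB counts may therefore include reads of these neighbours or lack reads from the shared bases.

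HILPDA (ENSG00000135245, chr7:128455849-128458418, plus strand) encodes the hypoxia-inducible droplet protein that inhibits PNPLA2. At 24 h it measured 43.2, 59.7 and 62.4 CPM in DMSO and 101, 128 and 102 CPM in Molidustat. At 48 h it measured 54.1, 33.0 and 55.7 CPM in DMSO and 101, 126 and 157 CPM in Molidustat. All 6 Molidustat libraries were above all 6 DMSO libraries. The log2 fold change was 1.0 at 24 h (SE 0.31, interval 0.34 to 1.66, adjusted p 0.421) and 1.41 at 48 h (SE 0.31, interval 0.74 to 2.07, adjusted p 0.0982), and neither passed the threshold in the main edgeR fit. Without the filter on low counts, edgeR called HILPDA at 48 h. DESeq2, the study's own tool, gave 1.39 with an adjusted p of 0.00119 at 48 h and called it. The effect at 48 h was 1.21 without DMSO 48 h replicate 2 (adjusted p 0.106). Its levels ranked DMSO 48 h (47.6 ± 12.7 CPM), DMSO 24 h (55.1 ± 10.4), Molidustat 24 h (110 ± 15.1) and Molidustat 48 h (128 ± 28; SD, n = 3 each), and groups of the same treatment overlapped. Exons of HILPDA share 186 bases with HILPDA-AS1, which had 0 to 32 counts per library, and 175 bases with a further long noncoding RNA, which had 0 to 17 counts.

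PNPLA2 (ENSG00000177666, chr11:818914-825573, plus strand), the lipase at the entry of triglyceride breakdown, was covered by 1 to 133 counts per library. It measured 6.89, 0.39 and 4.54 CPM in DMSO and 8.25, 16.1 and 4.81 CPM in Molidustat at 24 h, and 3.20 to 6.37 CPM against 2.25 to 5.45 CPM at 48 h. The groups overlapped at both times. Its log2 fold changes were 1.27 (interval -0.45 to 3.0, adjusted p 0.999) and -0.17 (interval -1.93 to 1.59, adjusted p 0.961), intervals wide enough to hold a large change in either direction at 48 h. The value at 24 h ran from 0.69 (without Molidustat 24 h replicate 2) to 1.9 (without DMSO 24 h replicate 1) with 1 library left out, and was 0.77 without DMSO 24 h replicate 2. G0S2 (ENSG00000123689, chr1:209675412-209676390, plus strand), the other inhibitor of this lipase, had 1 count in all, in DMSO 24 h replicate 2. In the other 11 libraries a count of 0 allows up to 3 counts, which is 0.310 to 3.19 CPM, so a treatment difference in G0S2 was not detectable at this depth. The log2 ratio of HILPDA to PNPLA2 counts in 1 library was 2.81 to 4.10 in DMSO and 4.67 to 5.42 in Molidustat at 48 h, without overlap, and 2.63 to 6.70 against 2.98 to 4.38 at 24 h, where the groups overlapped. At 48 h it rested on 4 to 47 counts of PNPLA2 in DMSO and 10 to 29 in Molidustat. This ratio was not tested, as the genes were chosen with results of these data known.

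DGAT1 (ENSG00000185000, on chromosome 8) and DGAT2 (ENSG00000062282, chr11:75759512-75801535, plus strand) are the 2 acyltransferases that complete triglyceride. DGAT1 measured 14, 22.7 and 31.2 CPM in DMSO and 32.6, 17.8 and 16.7 CPM in Molidustat at 24 h, and 28.5, 21.3 and 28.8 CPM against 30.8, 16.7 and 25.6 CPM at 48 h. DGAT2 measured 50.1, 33.1 and 53.9 CPM in DMSO and 32.3, 103 and 37.3 CPM in Molidustat at 24 h, and 65.1, 17.0 and 58.9 CPM against 60.2, 49.8 and 87.0 CPM at 48 h. Treated and control libraries of both genes overlapped at both times. The log2 fold changes of DGAT1 were -0.03 (interval -0.90 to 0.85) and -0.11 (interval -0.99 to 0.76, and -0.24 without DMSO 48 h replicate 2), with a sign that turned under other settings. Those of DGAT2 were 0.34 (interval -0.70 to 1.38) and 0.44 (interval -0.60 to 1.49), and the value at 48 h was 0.07 without DMSO 48 h replicate 2. The high DGAT2 value of 103 CPM at 24 h came from 1 library, Molidustat 24 h replicate 2, without which the effect was -0.39. Exons of DGAT1 share 137 bases with HSF1 on the opposite strand, which had 60 to 1286 counts per library. With the strand setting not given, DGAT1 counts may include reads of HSF1 or lack reads from the shared bases. The same holds for the ratio to DGAT2. The log2 ratio of DGAT2 to DGAT1 counts had means of 1.05 and 1.22 at 24 h and 0.64 and 1.43 at 48 h, in DMSO and Molidustat respectively, with overlap at both times. The mean of 0.64 was lowered by DMSO 48 h replicate 2, with 16 counts of DGAT2 and 20 of DGAT1. Replicates 1 and 3 of that group had 480 and 570 counts of DGAT2 and 210 and 279 of DGAT1.

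FABP1 (ENSG00000163586, chr2:88122982-88128062, minus strand) encodes the liver fatty acid binding protein, which carries fatty acids through the cytosol. It measured 71.2, 66.6 and 188 CPM in DMSO and 131, 60.8 and 340 CPM in Molidustat at 24 h. At 48 h it measured 91.8, 37.3 and 126 CPM in DMSO and 159, 479 and 220 CPM in Molidustat. The groups overlapped at 24 h, whereas at 48 h all 3 Molidustat libraries were above all 3 DMSO libraries, a position shared by 9.96% of all genes. The log2 fold change was 0.70 at 24 h (SE 0.62, interval -0.61 to 2.01) and 1.72 at 48 h (SE 0.63, interval 0.39 to 3.06, adjusted p 0.247). Although the latter exceeded that of PLIN2, the 3 Molidustat libraries spread from 159 to 479 CPM and the adjusted p missed the threshold. FABP1 was called at 48 h by edgeR without the filter on low counts. Without DMSO 48 h replicate 2 the effect at 48 h was 1.38 (adjusted p 0.688), and without Molidustat 48 h replicate 2, the highest library, it was 1.12. At 24 h it was -0.20 without Molidustat 24 h replicate 3. FABP1 is itself a transcript of the hepatocyte programme, and 8 of the 10 hepatocyte markers had positive log2 fold changes at 48 h, APOB and HNF4A being the exceptions, a link that was not tested.

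VLDLR (ENSG00000147852, chr9:2621182-2660056, plus strand) encodes a receptor for triglyceride-rich lipoproteins. It was covered by 1 to 72 counts per library, and its exons share 1100 and 260 bases with 2 noncoding RNAs on the opposite strand, which had 0 to 9 and 0 to 5 counts. At 24 h it measured 0.69, 0.39 and 6.20 CPM in DMSO and 4.66, 7.04 and 8.27 CPM in Molidustat. At 48 h it measured 3.93, 17.0 and 7.44 CPM in DMSO and 11.9, 0.86 and 3.57 CPM in Molidustat. The groups overlapped at both times, and the highest value came from DMSO 48 h replicate 2, which had 16 counts of it. The log2 fold changes were 1.40 (SE 1.0, interval -0.72 to 3.52) at 24 h and -0.69 (SE 0.98, interval -2.78 to 1.40) at 48 h, and the latter was -0.06 without that library. It was -1.92 at its lowest with Molidustat 48 h replicate 1 left out. The effect at 24 h was 3.51 without DMSO 24 h replicate 3, the control with the highest value at that time, and 0.95 to 1.59 with any other library of that time left out. The difference between the time points in the effect was -2.09 (SE 1.40, adjusted p 0.838). Its levels ranked DMSO 24 h (2.42 ± 3.27 CPM), Molidustat 48 h (5.45 ± 5.76), Molidustat 24 h (6.66 ± 1.83) and DMSO 48 h (9.47 ± 6.78; SD, n = 3 each), and all neighbours in this order overlapped.

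**Figure D3:**
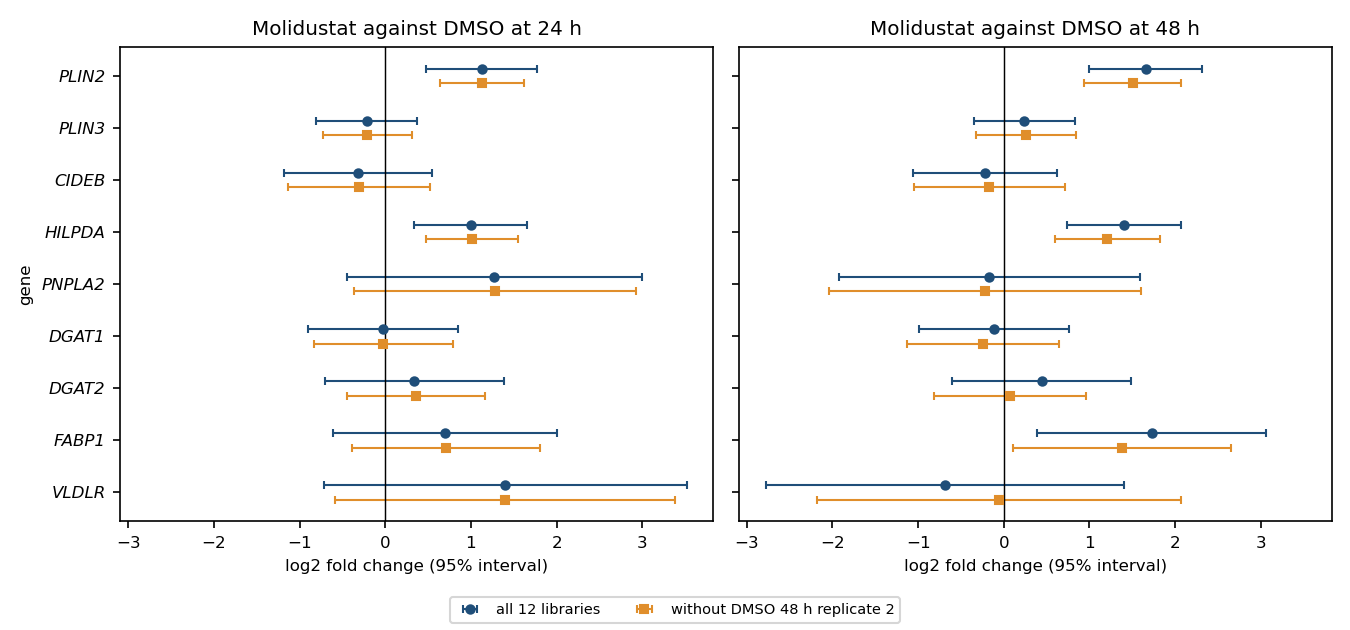
Log2 fold change of Molidustat against DMSO (x axis, edgeR, with 95% intervals as bars) for the 9 genes tested (y axis), at 24 h on the left and 48 h on the right, from all 12 libraries (circles) or without DMSO 48 h replicate 2 (squares). At 48 h the intervals of PLIN2, HILPDA and FABP1 lie above 0 in both fits, and those of PNPLA2 and VLDLR span more than 3 log2 units.

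No member was called for a difference between the time points in its response. Over all genes tested, 0 were called for the interaction of treatment and time by edgeR (968 at an unadjusted p under 0.05, and 8 called by DESeq2), and none of the 9 members was among those called by either tool. Between 48 h and 24 h within a treatment, no member was called.

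The other genes of the pathway were taken from 5 lists covering the droplet coat, triglyceride synthesis, lipolysis, lipid uptake and the nuclear receptors of lipid storage. Beside the members these lists held 64 genes, of which 41 could be tested, and 0 of the 41 were called by edgeR at either time point. At an unadjusted p under 0.05, 3 were higher and 2 lower at each time, where 5.25% of all genes passed at 24 h and 13.3% at 48 h. Without DMSO 48 h replicate 2, 44 could be tested, with 6 higher and 3 lower at 24 h and 2 higher and 1 lower at 48 h. In that fit 1378 of all 15253 genes tested passed at 24 h and 1006 at 48 h. The median log2 fold changes of the 41 genes were 0.06 at 24 h and 0.19 at 48 h, against 0.02 and 0.0060 over all genes. PLIN2 was therefore the single called gene of the whole pathway, members included, in these comparisons. Genes of storage that are at home in fat cells, such as PLIN1, CIDEC, LIPE and LPL, were too low to be tested.

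Of the 17 genes of droplet coat and assembly, 11 were tested, and their log2 fold changes had a median of -0.22 in the earlier comparison and 0.24 in the later, which was 0.09 without DMSO 48 h replicate 2. Apart from PLIN2 and HILPDA, none was clear of its controls in the upward direction at either time. In the downward direction AUP1, a droplet protein that also acts in protein degradation, measured 49.3 to 79.9 CPM in Molidustat and 90.3 to 108 CPM in DMSO at 24 h (log2 fold change -0.67, adjusted p 0.999), and it overlapped at 48 h. The strongest negative value at 24 h was that of LDAF1, a partner of seipin in droplet formation, at -5.17 (SE 1.91, adjusted p 0.732). It rested on 27 counts (10.4 CPM) in DMSO 24 h replicate 2, with 0 to 3 counts in the other 5 libraries of that time point. The next was PLIN5, a perilipin of oxidative tissue, at -0.88 (adjusted p 0.999). At 48 h the most negative beside CIDEB was HSD17B11, a droplet dehydrogenase, at -0.19, with 191 to 292 CPM in DMSO and 205 to 236 CPM in Molidustat. That order is from all 12 libraries, and without DMSO 48 h replicate 2 the most negative were AUP1 (-0.52), LDAF1 (-0.39) and HSD17B11 (-0.36), with CIDEB at -0.17.

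Triglyceride synthesis held 17 genes, of which 14 were tested and none called, with medians of 0.24 and 0.32, the latter 0.55 without DMSO 48 h replicate 2. GPAT4, which adds the first fatty acid to glycerol 3-phosphate at the endoplasmic reticulum and on droplets, was the one gene of the pathway with every Molidustat library below every DMSO library at both times. It measured 48.5, 34.3 and 44.8 CPM in DMSO and 19.4, 27.6 and 21.3 CPM in Molidustat at 24 h, and 44.5, 41.5 and 38.0 CPM against 25.8, 22.3 and 26.5 CPM at 48 h. Its log2 fold changes were -0.90 (SE 0.31, adjusted p 0.603) and -0.73 (SE 0.31, adjusted p 0.324), neither past the threshold. Such a position below the controls was held by 5.02% of all genes at 24 h and 8.02% at 48 h. The share of all genes that held it at both times was not computed. GPAM, the mitochondrial enzyme of the same step, measured -0.38 at 24 h, while at 48 h its Molidustat libraries (35.3 to 47.6 CPM) were above its DMSO libraries (6.39 to 30.6 CPM), with a log2 fold change of 0.94 that was 0.58 without DMSO 48 h replicate 2.

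AGPAT2, which adds the second fatty acid, measured 659, 350 and 598 CPM in DMSO and 1237, 1154 and 1108 CPM in Molidustat at 48 h. The Molidustat libraries were all higher, with a log2 fold change of 1.12 (SE 0.36, adjusted p 0.213), which was 0.88 without DMSO 48 h replicate 2. AGPAT4 had the largest positive value at 48 h, 2.61 (SE 1.84), from 0 to 23 counts per library, and measured 1.55 at 24 h. LPIN1, a phosphatidate phosphatase and coactivator, measured 1.93 to 4.34 CPM in DMSO and 6.81 to 16.2 CPM in Molidustat at 24 h, without overlap, with a log2 fold change of 1.57 (SE 0.60, adjusted p 0.789). At 48 h it overlapped, with 7.73 to 19.2 CPM in DMSO and 8.15 to 18.2 CPM in Molidustat. LPIN3 was also higher without overlap at 24 h, with 4.59 to 14.6 CPM in DMSO and 19.5 to 26.2 CPM in Molidustat. Such a position at 24 h was held by 7.26% of all genes. LPIN3 had a value of -1.77 at 48 h (adjusted p 0.373) that came from 218 CPM in DMSO 48 h replicate 2, and without that library it was 0.69.

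Lipolysis and its regulators held 10 genes, of which 7 were tested. Their median was 1.0 at 24 h and -0.12 at 48 h, the latter 0.08 without DMSO 48 h replicate 2, and none was called. ABHD6, a monoacylglycerol lipase, measured 0 to 2.30 CPM in DMSO and 3.94 to 6.55 CPM in Molidustat at 24 h (log2 fold change 2.34, SE 1.08, adjusted p 0.928). LIPA, the acid lipase of lysosomes, measured 3.85 to 11.5 CPM against 15.4 to 20.8 CPM at 24 h (1.39, SE 0.70, adjusted p 0.976), and its value at 48 h was 0.95, or 0.50 without DMSO 48 h replicate 2, which had 0 counts of it. ABHD5, the coactivator of PNPLA2, measured 25.3, 22.4 and 17.6 CPM in DMSO and 16.0, 2.57 and 12.4 CPM in Molidustat at 48 h. All 3 Molidustat libraries were lower, with a log2 fold change of -1.04 (SE 0.51, adjusted p 0.399), whereas the groups overlapped at 24 h, with -0.25. MGLL, which cleaves monoacylglycerol, had log2 fold changes of -0.21 and -0.20, and the latter was 0.08 without DMSO 48 h replicate 2.

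In lipid uptake, binding and activation 13 of 25 genes were tested, with medians of 0.14 and 0.36, the latter 0.14 without DMSO 48 h replicate 2. SLC27A3, a fatty acid transport protein, measured 2.30 to 3.92 CPM in DMSO and 5.38 to 11.2 CPM in Molidustat at 24 h, without overlap (log2 fold change 1.52, SE 0.65, adjusted p 0.872). DBI, which binds acyl-CoA, had 1.06 at 48 h (SE 0.48, adjusted p 0.357) with overlapping groups, and 0.71 without DMSO 48 h replicate 2. The most negative values were those of SLC27A2 (-0.94) and of the hepatic lipase LIPC (-0.60) at 24 h, and of SLC27A4 (-0.21), next to VLDLR, at 48 h, each with overlapping groups. Without DMSO 48 h replicate 2 SLC27A4 had -0.65 at 48 h and was the most negative of the list.

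All 6 genes of the nuclear receptor list were tested, and their medians were 0.09 at 24 h and -0.0018 at 48 h, the latter -0.07 without DMSO 48 h replicate 2. PPARG, a receptor that promotes fat storage, measured 0.70 at 48 h (SE 0.36, adjusted p 0.427), with 25.3 to 53.5 CPM in DMSO and 45.5 to 76.1 CPM in Molidustat. PPARA, the receptor of fatty acid oxidation, measured 0.68 at 24 h and 0.12 at 48 h, the latter 0.0014 without DMSO 48 h replicate 2. The coactivator PPARGC1A had 3.37 at 24 h (SE 1.73) from at most 1.82 CPM in any of those libraries, and -0.13 at 48 h, which was 1.33 without DMSO 48 h replicate 2. The lowest values were those of PPARD (-0.12) and RXRA (-0.11) at 24 h and of NR1H3 (-0.15) at 48 h, which was -0.23 without DMSO 48 h replicate 2.

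**Figure D4:**
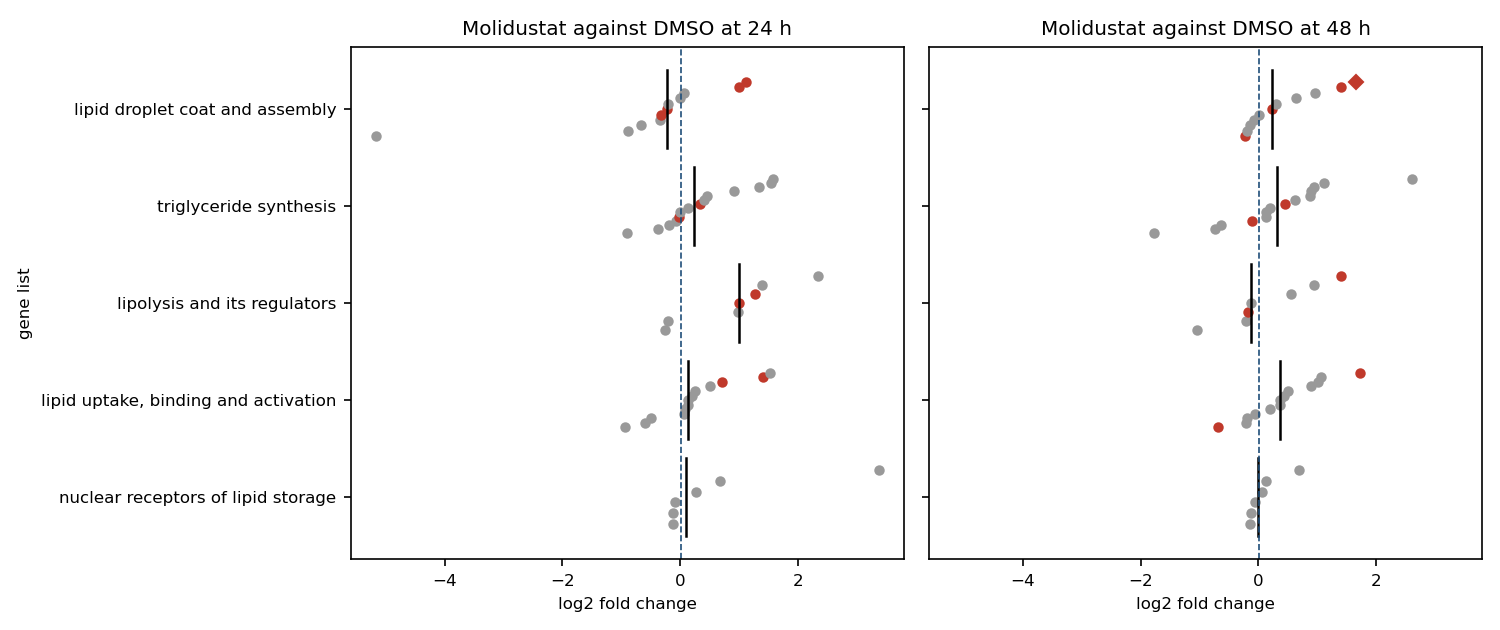
Log2 fold change of Molidustat against DMSO (x axis, edgeR) of every tested gene in 5 lists of the pathway (y axis), at 24 h on the left and 48 h on the right. Red points are the 10 genes described here, grey points other genes, the diamond a called gene, black bars the list medians and the dashed line the median of all genes tested, 0.02 and 0.0060. PLIN2 at 48 h is the one diamond, and the point at -5.17 is LDAF1.

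The transcripts most like the members across the 12 libraries, by Pearson's r of log2 CPM among 9089 or 9090 genes with a mean of at least 10 CPM, are given as a description, since the points share libraries, depths and groups. For PLIN2 they were FAM162A (r = 0.96), NPPB (0.95) and DMTN (0.94). Their own log2 fold changes were 1.75, 3.36 and 1.66 at 24 h and 2.43, 5.39 and 2.41 at 48 h. With the group means removed, the likeness to PLIN2 was 0.56, 0.49 and 0.69. For HILPDA they were IKBIP (0.96), GPX4 (0.94) and FUNDC2 (0.94), and with the group means removed 0.88, 0.85 and 0.75. For VLDLR they were SLC12A8 (0.89), EFCAB14 (0.88) and USP5 (0.88), a likeness that includes the low counts of VLDLR. With the group means removed it was 0.83, 0.89 and 0.90. These genes were chosen over the same libraries as the members, so a shared direction was fixed by the choice.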

How the data were processed

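The authors made 3′ libraries of polyadenylated RNA, sequenced them on an Illumina instrument and deposited whole-number counts per gene, without normalization, in 12 tables. Per the submitters' processing notes, bcl2fastq 2.17.1.14, cutadapt 1.9.1, STAR 2.7.9a, HTSeq 0.11.2 and DESeq2 1.26.0 were used on GRCh38. The annotation, strand setting and use of molecular identifiers are not given in the sources used here, and PCR copies may be counted: floors hold for counting error alone, while intervals of fold changes rest on the spread between libraries. The 5 summary lines were left out of library sizes; no-feature reads made up 17.1 to 50.4% of listed reads.

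The main test was that of edgeR 4.0.16 (R 4.3.3), on genes kept by filterByExpr (minimum count 10, minimum total 15; 14274 of 28430 with a count), TMM factors, the quasi-likelihood test on all 12 libraries and Benjamini-Hochberg adjustment over all genes tested. DESeq2 1.42.0 and limma 3.58.1 (voom with quality weights) were alternatives, beside other scalings and filters, separate fits, a replicate block and each library left out. DESeq2 without DMSO 48 h replicate 2 was added after seeing the data. The tests were checked on simulated counts. Names and coordinates are from GENCODE 44. Figures were drawn with Python 3.11.15 and matplotlib 3.10.9.

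The members and lists were chosen with earlier results of these data known. Named genes are the members, list genes called, the 2 highest and 2 lowest tested genes of each pathway list at each time, and the 3 genes most like HILPDA, PLIN2 and VLDLR. Values of such a gene at its other time point, and the marker and untested genes named, were added after values were seen.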

Additional observations from a re-analysis of the deposited data

How the results depend on the processing

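The log2 fold changes of PLIN2 and HILPDA stayed positive at both time points under all settings, from 0.96 to 1.29 and 0.85 to 1.08 at 24 h and from 1.5 to 1.77 and 1.21 to 1.54 at 48 h, while the number of members called depended on the setting, and the cause was not tested. At 24 h, 0 members were called, but PLIN2 made it 1 in DESeq2 (log2 fold change 1.13, adjusted p 0.00421), in limma-voom (1.23, adjusted p 0.0189) and in DESeq2 without DMSO 48 h replicate 2 (1.12, adjusted p 0.000142). In 17 of 21 alternative settings PLIN2 was not called at 24 h, with an adjusted p from edgeR of up to 0.994. HILPDA at 48 h was likewise not called in 17 of 21, with an adjusted p from edgeR of up to 0.458. At 48 h, 1 member was called, which became 2 with HILPDA in DESeq2 (1.39), in limma-voom (1.27) and in DESeq2 without that library (1.25), and 3 with HILPDA (1.40) and FABP1 (1.69) without a filter on low counts. It became 0 with total counts (PLIN2 1.77, adjusted p 0.0824) and in a fit of the 48 h groups alone (1.64, adjusted p 0.241). Leaving out each library in turn gave 0 to 1 members at 24 h and 0 to 1 at 48 h, and 1 at 24 h came only without DMSO 48 h replicate 2.

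The replicate numbers did not pair the libraries, since 4 of 18 same-numbered pairs had deviations correlated over 0.1 (range -0.14 to 0.18). Of the 12 libraries, 5 correlated best with the libraries of other groups that carried their own number. With the replicate block, 30 genes were called at 24 h and 22 at 48 h, and 0 members at 48 h, PLIN2 having 1.68 with an adjusted p of 0.0702. No other call of a member changed with the block.

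Signs turned, with no call, for DGAT1 at 24 h to 0.088 in limma-voom and 0.0015 with at least 10 counts in every library, DGAT2 at 24 h to -0.0094 and PNPLA2 at 48 h to 0.0099 in limma-voom, and DGAT1 at 48 h to 0.0078 with total counts. With 1 library left out, members whose sign turned ranged from -0.39 to 0.27 (DGAT1, 24 h), -0.39 to 0.62 (DGAT2, 24 h), -0.20 to 1.35 (FABP1, 24 h), -0.44 to 0.20 (PNPLA2, 48 h), -0.32 to 0.071 (DGAT1, 48 h) and -0.37 to 0.022 (CIDEB, 48 h). The others that moved by over 1.5 times ranged from 0.69 to 1.9 (PNPLA2, 24 h), 0.95 to 3.51 and -1.92 to -0.06 (VLDLR, 24 h and 48 h), -0.39 to -0.14 and 0.14 to 0.34 (PLIN3), -0.50 to -0.06 (CIDEB, 24 h), 0.07 to 0.71 (DGAT2, 48 h) and 1.12 to 2.11 (FABP1, 48 h).

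Over the whole table, 33 genes called at 24 h became 145 in DESeq2, 64 in limma-voom, 106 without the filter, 15 with at least 10 counts in every library, 57 in a separate fit and 230 in DESeq2 without DMSO 48 h replicate 2, and 20 to 116 with 1 library left out. At 48 h, 33 became 350, 278, 764, 15, 7 and 172, and 13 to 327. The split at 48 h moved from 30 higher and 3 lower to 174 and 176 in DESeq2, 244 and 34 in limma-voom and 154 and 610 without the filter, and to 55 and 272 without DMSO 48 h replicate 1 and 46 and 152 without DMSO 48 h replicate 3. For the interaction, 0 became 8 in DESeq2, 321 without the filter and 1 in DESeq2 without that library. Between the times within DMSO, 1 became 46 in DESeq2, 2 in limma-voom, 3 with total counts, 400 without the filter, 0 with at least 10 counts in every library or in a separate fit and 22 in DESeq2 without that library, and within Molidustat 0 became 12, 1 in limma-voom, 4 without the filter and 91, while with 1 library left out the counts were 1 to 2 and 0 to 4, the latter 4 without DMSO 48 h replicate 2. Total counts moved the median log2 fold change of all genes at 48 h to 0.13 and that between the times in DMSO to -0.13. Low counts limit PNPLA2 and VLDLR, with as few as 1 count per library, and G0S2, which could not be tested.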
